A study of Mus musculus with 7 samples.

Results

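This report covers the kallikreins, other serine proteases, cathepsins and protease inhibitors of mouse epidermis after loss of the lipid transporter Abca12. The gene families were chosen with earlier results of these data known. Members were then taken by name: every row of the deposited table whose symbol starts with Klk, Tmprss, Prss, Spink, Spint, Cts plus a letter or Cst plus a number, and St14. That gave 35 of the 7091 genes listed, made up of 22 serine proteases, 10 cathepsins, 2 inhibitors (Spink5 and Cst6) and 1 antisense RNA, Prss23os. RNA of separated epidermis from telogen (resting-phase) skin was sequenced in bulk from 7 mice. The 4 KA mice had the genotype K14-CreERT;ABCA12-cKO, in which a tamoxifen-dependent Cre recombinase under the keratin 14 promoter of basal keratinocytes deletes a conditional Abca12 allele. The 3 controls (ABCA12-c/c) carried the conditional allele without CreERT. All were injected at 8 weeks of age with tamoxifen on 3 consecutive days, 1 mg for each 40 g of mouse, and were sampled 2 weeks later, so the deletion cannot be told apart from the presence of an active recombinase. KA 1 and KA 2 were males and KA 3 and KA 4 females. Control 2 was a male, and control 1 and control 3 were females.

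Corneocytes, the dead cells at the skin surface, are held together by corneodesmosomes and are shed once proteases cut these junctions, a process called desquamation. In the textbook scheme the kallikrein-type serine proteases Klk5, Klk7 and Klk14 cut the corneodesmosome proteins, and the multi-domain inhibitor made by Spink5 restrains them. Membrane-bound proteases such as matriptase (St14) and prostasin (Prss8) act in the living layers below, while cathepsins are mostly lysosomal enzymes and are held by cystatins, among them cystatin M/E from Cst6.

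The table is itself a selection. Every listed gene passed the authors' own limit of 0.05 on the adjusted p-value for KA against control, out of 19407 genes in their adjustment, so each member differed by construction and no count of members that passed again is evidence for them. Genes that are not listed were not analysed here. These include Klk7, Klk11, St14, Spint1, Spint2 and Cst3. Reads in listed genes came to 9590718 to 12761458 per library, which is a part of each library and not its depth. Values below are normalised reads, that is, counts divided by the authors' size factor of each library (0.8876 to 1.247). Fold changes are log2 values of KA over control from edgeR's quasi-likelihood test on the counts with those same factors, over 6749 genes. The labels do not say that mice came from separate litters or batches, and p-values measure the spread between these libraries. The epidermal label was checked on keratinocyte markers, which were abundant in every library and moved between the groups. Of 6 basal markers 4 were listed, and Krt5 and Krt14 rose by 0.50 and 1.58 on the log2 scale while Itgb4 and Col17a1 had log2 fold changes of -0.49 and -1.05. Their summed normalised reads were 387856 to 424737 in controls and 610466 to 743660 in KA. Of 6 spinous and granular markers 4 were listed, and Krt1 and Ivl rose by 2.39 and 0.71 while the late markers Lor and Sbsn had log2 fold changes of -1.85 and -1.31. Their sums were 164328 to 189941 and 274247 to 434539. The part of these marker changes in the protease and inhibitor changes below was not tested. The dermal fibroblast list had 1 of 8 genes in the table, Col6a1, at 128 to 470.0 normalised reads. Genes that did not pass the authors' limit are missing whatever their level, so this cannot show how much dermis was present.

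Among the 35 genes, 23 were higher and 12 lower in KA. Of these, 30 had enough reads to be tested, and all 30 passed with an adjusted p under 0.05, where 100% of all genes tested passed (6746 of 6749). They were 20 higher, a background of 52.7%, and 10 lower, a background of 47.3%. The median log2 fold change of the 30 was 1.26, against 0.36 over all genes tested. A change of at least 2-fold was fitted in 22 of the 30, 16 upwards and 6 downwards, where 41.2% of all genes tested changed as much, 20.5% upwards and 20.8% downwards. The KA and control libraries did not overlap in 25 of the 30, against 93.5% of all genes tested. That share is the background wherever a gene is said below not to overlap. The 5 that overlapped were Klk5, Klk8, Klk12, Klk14 and Ctsf. Of the annotated protein-coding genes of each family, 8 of 27 were listed for Klk, 6 of 17 for Tmprss and 8 of 39 for Prss. It was 10 of 19 for Cts, 1 of 13 for Spink, 1 of 9 for Cst, 0 of 5 for Spint and 0 of 1 for St14. Over all genes, 7091 of the 19407 in the authors' adjustment were listed. The bases are unlike, since an annotated gene need not be in that adjustment, and family differences were not tested.

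**Figure D1:**
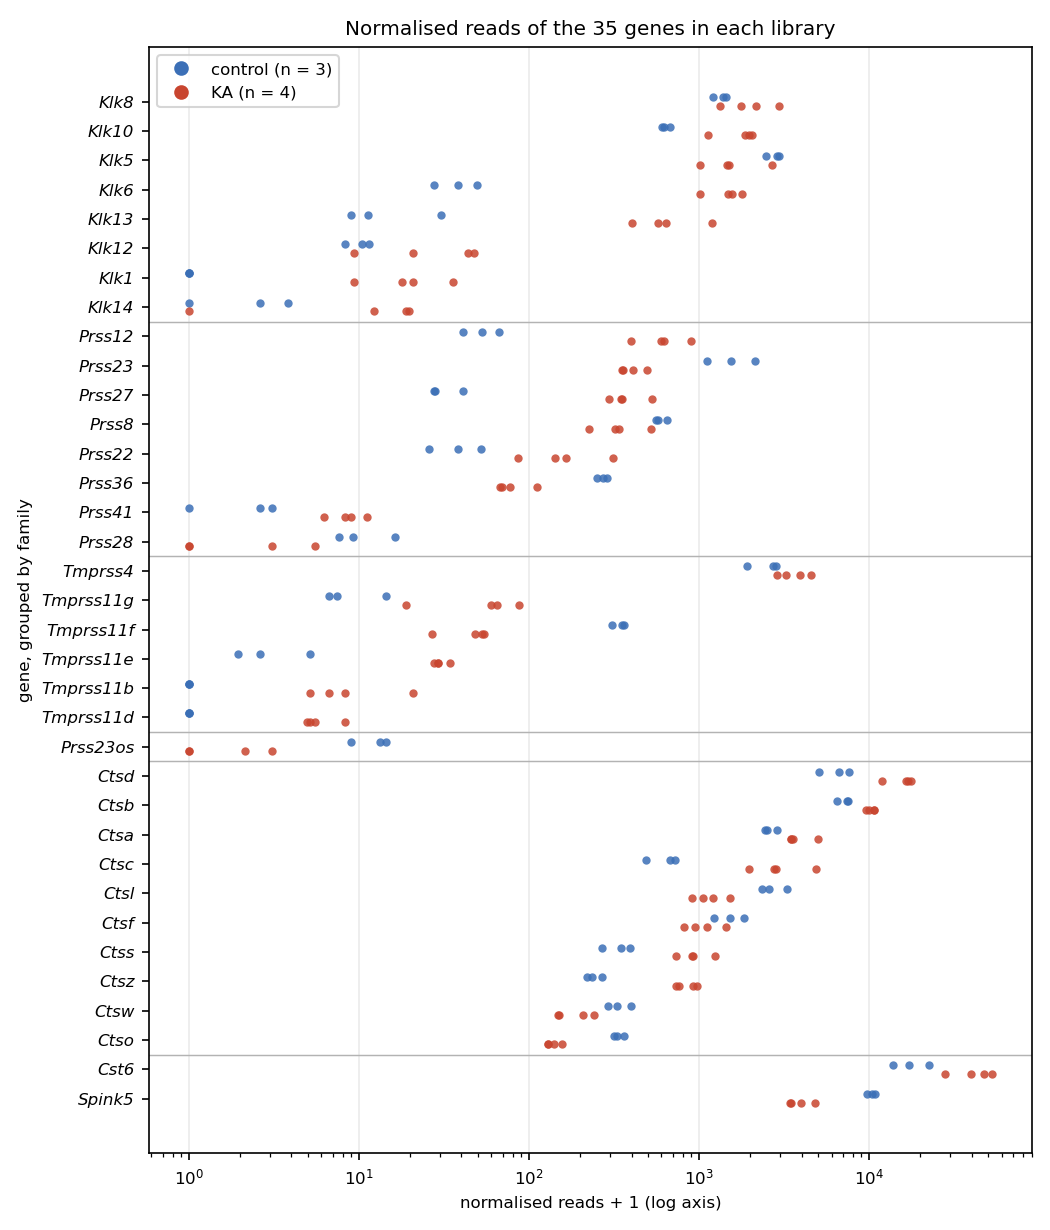
Normalised reads plus 1 (log axis) of each of the 35 genes in every library, control in blue (n = 3) and KA in red (n = 4), grouped by family. Klk6 and Klk13 stand more than a decade apart between the groups, while the points of Klk5, Klk8, Klk12, Klk14 and Ctsf interleave.

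The listed kallikreins changed in their make-up as well as in their sum. Klk6 and Klk13, both low in control epidermis, rose by 5.29 and 5.47 on the log2 scale, Klk10 and Klk8 rose less, and Klk5, the most abundant listed kallikrein of the controls, fell. In all, 7 of the 8 listed kallikreins were higher and 1 was lower, where 52.7% of all genes tested were higher and 47.3% lower. All 8 lie in 1 cluster on chromosome 7 and on the plus strand. Their median log2 fold change was 2.28, or 2.26 with Klk1 at its lower bound.

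Klk6, a trypsin-like kallikrein first known from brain (ENSMUSG00000050063, chromosome 7, 43824499 to 43832030), stood at 48.3, 37.1 and 26.5 normalised reads in controls 1 to 3 and at 1777, 1477, 1567 and 1008 in KA 1 to KA 4. The lowest KA library was far above the highest control, and the log2 fold change was 5.29 (SE 0.27; edgeR adjusted p = 9.01e-07). Klk13 (ENSMUSG00000054046, chromosome 7, 43712567 to 43727534), another trypsin-like member, stood at 29.3, 10.3 and 8.02 in controls and at 1196, 637, 401 and 569 in KA. Here KA 1 was the highest library and KA 3 the lowest of the KA group. The log2 fold change was 5.47 (SE 0.55; edgeR adjusted p = 6.01e-05).

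Klk5 (ENSMUSG00000074155, chromosome 7, 43841971 to 43851181), which starts the kallikrein cascade of the stratum corneum, stood at 2858, 2936 and 2474 in controls and at 1488, 1449, 2685 and 1006 in KA. KA 3 lay inside the control range and the other 3 KA libraries below it. The log2 fold change was -0.73 (SE 0.27; edgeR adjusted p = 0.0244). This call was lost without control 1 (adjusted p = 0.0671), control 2 (0.0675), KA 1 (0.0515) or KA 2 (0.0554), and its adjusted p ran from 1.73e-05 to 0.0702 over the alternatives tried.

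Klk10 (ENSMUSG00000030693) went from 616, 671 and 604 in controls to 2035, 1973, 1856 and 1131 in KA, without overlap (log2 fold change 1.47, SE 0.20; edgeR adjusted p = 0.000118). Klk8, also called neuropsin (ENSMUSG00000064023), stood at 1383, 1206 and 1435 in controls and at 2157, 1764, 2929 and 1327 in KA. KA 4 fell inside the control range, and the log2 fold change was 0.61 (SE 0.23; edgeR adjusted p = 0.0246). The call for Klk8 was lost with TMM scaling computed from the listed genes (adjusted p = 0.0703). It was also lost without control 1 (0.0572), control 2 (0.0795) or KA 3 (0.0520), within a range of 0.00373 to 0.0953 over the alternatives.

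The other 3 kallikreins were at low counts. Klk14, a strong activator of other kallikreins, had 3, 0 and 2 counts in controls and 18, 10, 0 and 18 in KA, so KA 3 had none. Its summed counts were 7.88 times higher in KA per unit of size factor (95% exact interval 3.14 to 25.4, counting error only), and its call (edgeR adjusted p = 0.0215) was lost without control 2 (0.0612) or control 3 (0.0571), within a range of 0.00147 to 0.143 over the alternatives. Klk12 stood at 9.47, 7.22 and 10.4 normalised reads in controls and at 46.5, 42.8, 19.8 and 8.31 in KA, with KA 4 inside the control range. Klk1, the tissue kallikrein that releases kinins, had 0 counts in every control and 35, 15, 19 and 8 in KA, a mean at least 7.17-fold higher against a floor of 3 counts per library. Klk1 has close paralogs next to it, the Klk1b genes, and how reads were divided among them is uncertain.

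Summed per kilobase of gene length, the 8 kallikreins gave 3541, 3505 and 3254 reads per kb in controls and 5776, 4981, 6508 and 3381 in KA. KA 4 lay within the control range and the other 3 KA libraries above it. Within that sum Klk5 held 60.0% ± 2.92 (SD, n = 3) in controls and 23.6% ± 5.06 (SD, n = 4) in KA. Klk6 went from 0.713% ± 0.182 to 18.9% ± 2.01, and Klk13 from 0.199% ± 0.141 to 6.15% ± 2.70. Klk10 went from 13.4% ± 0.646 to 24.9% ± 3.34, while Klk8 held 25.4% ± 3.14 in controls and 25.5% ± 2.68 in KA. Every KA library, KA 4 included, thus had a smaller share of Klk5 and a larger share of Klk6 than any control. Reads per kb of Klk5 were 87.5 ± 19.5 times those of Klk6 in controls (SD, n = 3) and 1.28 ± 0.446 times in KA (SD, n = 4). The shares and this ratio use the deposited gene length and depend on it. The median coding transcript was 718 bases for Klk13 (deposited length 2297), 777.5 for Klk5 (1336) and 1133.5 for Klk6 (1513).

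**Figure D2:**
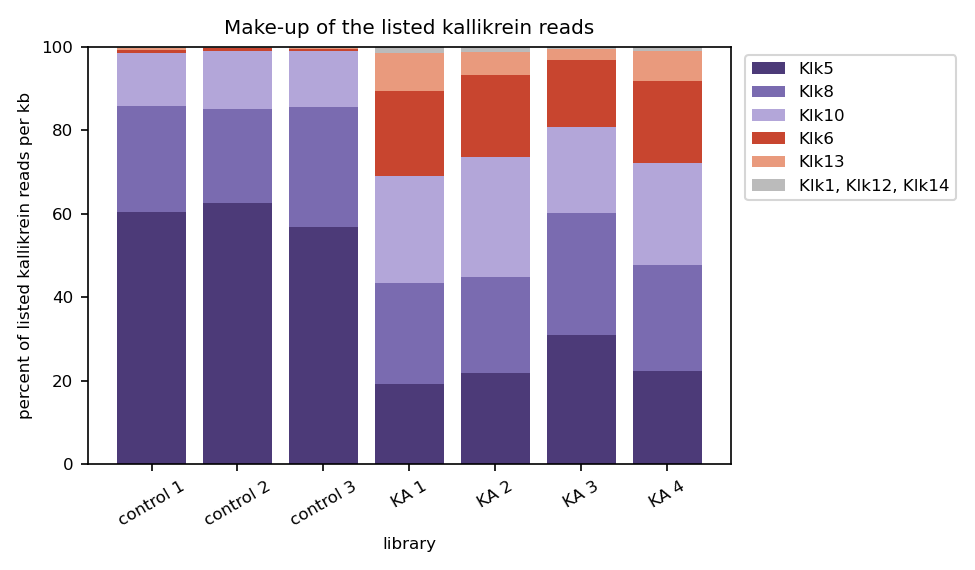
Percent of the summed reads per kb of the 8 listed kallikreins held by each gene, 1 bar per library. Klk5 takes 56.9% to 62.7% of each control bar and 19.3% to 30.9% of each KA bar, where Klk6 takes 15.9% to 20.3%.

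From Klk14 to Klk5 the listed genes read, in order along chromosome 7, Klk14, Klk13, Klk12, Klk10, Klk8, Klk6 and Klk5, and the largest rises were at Klk13 and Klk6, the latter directly beside Klk5. A long antisense gene, 2310002F09Rik on the minus strand, overlaps Klk14, Klk13, Klk12, Klk10 and Klk8. It had 79, 91 and 58 counts in controls and 27, 28, 33 and 13 in KA, so it was lower in KA. Since no strand setting is given in the sources used here, reads of an antisense pair cannot be told apart.

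**Figure D3:**
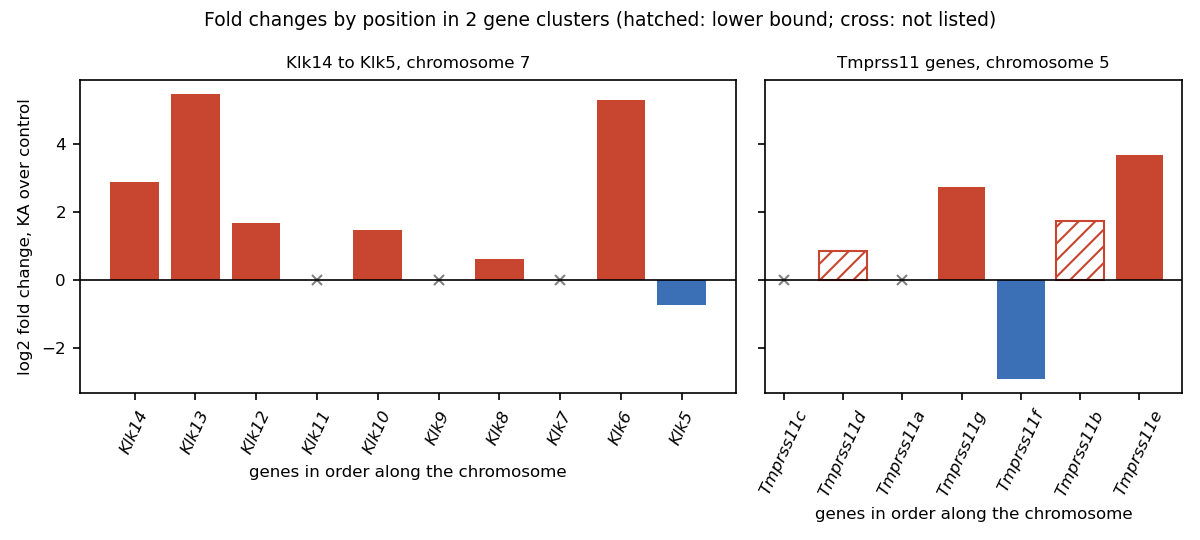
Log2 fold change of KA over control for genes in their order along the chromosome, in the Klk14 to Klk5 stretch (left) and among the Tmprss11 genes (right). Filled bars are fitted values, hatched bars are lower bounds for genes at 0 in every control, and crosses are genes not listed. Klk5 and Tmprss11f point down beside neighbours that point up.

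Sequence before the RefSeq start sites (GRCm38.p6, plus strand) is shown for the strongest rises, Klk13 and Klk6, and for Klk5, the neighbour that fell. The search covered 250 bases before each start, and bases that GENCODE places in a UTR are left out of the print (45 for Klk6 and 49 for Klk5). The 8 letters GGGNGGGG, a pattern of Klf and Sp factor sites, are in capitals where they stand on either strand. Klk13 is chr7:43712317-43712566, Klk6 (the upstream of its 2 start sites) is chr7:43824294-43824498, and Klk5 is chr7:43842068-43842268.
Klk13: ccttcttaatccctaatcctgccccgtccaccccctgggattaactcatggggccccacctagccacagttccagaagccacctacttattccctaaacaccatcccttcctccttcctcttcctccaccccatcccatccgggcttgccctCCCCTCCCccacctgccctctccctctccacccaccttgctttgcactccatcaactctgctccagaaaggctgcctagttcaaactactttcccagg
Klk6: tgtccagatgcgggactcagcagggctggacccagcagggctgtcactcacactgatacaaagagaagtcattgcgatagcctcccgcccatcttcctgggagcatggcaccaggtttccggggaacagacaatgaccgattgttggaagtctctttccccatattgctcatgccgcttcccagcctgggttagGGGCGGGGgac
Klk5: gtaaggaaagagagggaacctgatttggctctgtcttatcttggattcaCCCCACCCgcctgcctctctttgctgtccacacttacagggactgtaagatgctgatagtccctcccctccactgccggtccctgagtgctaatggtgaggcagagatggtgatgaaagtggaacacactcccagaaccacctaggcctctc

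The pattern was before 7 of the 8 kallikreins, namely Klk1, Klk5, Klk6, Klk8, Klk10, Klk13 and Klk14. It was in 30.8% of all 32851 windows of that length. Here and below a gene counts if any of its windows matched, while the percentages are shares of windows. The 2 measures are thus not alike. The window of the downstream Klk6 start site had 0 matches. The pattern thus stood before kallikreins that rose and before Klk5. Of 7 letter patterns searched on both strands in the 26 members with a RefSeq window, TGANTCA (AP-1) was in 4, namely Prss23, Prss36, Tmprss11d and Tmprss11f, and in 6.75% of all windows. It was before 0 of the 8 kallikreins. TTCNNNGAA (Stat) was in 3 members and 7.02% of all windows, TTNNGCAA (C/EBP) in 2 and 9.56%, and TATAAA in 2 and 12.4%. AACNGGTT (Grhl) was in 0 members and 1.79% of all windows, and an NF-kB pattern in 0 and 1.41%. Matches of different patterns may overlap, and a match describes letters only.

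The other secreted and anchored serine proteases went both ways. Prss27, Prss12 and Prss22 rose and Prss8, Prss36 and Prss23 fell, all without overlap between the groups. Over all genes tested, 93.5% did not overlap either. Prss27 (ENSMUSG00000050762, chromosome 17, 24038144 to 24045954), known as marapsin from stratified epithelia, stood at 26.5, 26.8 and 40.1 normalised reads in controls and at 526, 349, 295 and 348 in KA (log2 fold change 3.59, SE 0.28; edgeR adjusted p = 6.73e-06). Prss12, or neurotrypsin, which cuts the matrix protein agrin, went from 39.8, 51.5 and 65.8 to 891, 622, 398 and 596 (log2 fold change 3.57, SE 0.30). Prss22, a tryptase-like enzyme, went from 24.6, 37.1 and 51.3 to 141, 164, 310.2 and 85.1, with KA 3 highest and KA 4 lowest of the KA group.

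Prss8, or prostasin (ENSMUSG00000030800, chromosome 7, 127925716 to 127930104), an anchored protease needed for barrier formation, stood at 559.5, 569 and 649.6 in controls and at 319, 336, 518 and 225 in KA. The highest KA library, KA 3, was just below the lowest control, and the log2 fold change was -0.76 (SE 0.23; edgeR adjusted p = 0.00999). Its neighbour Prss36 (ENSMUSG00000070371, chromosome 7, 127932638 to 127946725), which has several protease domains, went from 288, 251 and 270.3 to 66.3, 76.6, 109.7 and 68.5 (log2 fold change -1.75, SE 0.22; edgeR adjusted p = 8.13e-05). Prss23 (ENSMUSG00000039405, chromosome 7, 89507783 to 89527187), a secreted protease, stood at 1109.6, 1536 and 2129 in controls and at 354, 489, 351 and 409 in KA (log2 fold change -1.99, SE 0.21; edgeR adjusted p = 3.56e-05). Neither Prss36 nor Prss23 overlapped between the groups.

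The antisense RNA Prss23os overlaps Prss23 on the other strand and had 13, 13 and 10 counts in controls and 0, 1, 0 and 2 in KA. It was too low to be tested, and the ratio of its summed counts per unit of size factor, control over KA, had a 95% exact interval of 4.42 to 71.1. It moved with Prss23, and reads of the pair may be shared. Prss41 and Prss28 were also below the filter. Prss41 had 0, 2 and 2 counts in controls and 8, 9, 5 and 7 in KA, and Prss28 had 7, 8 and 19 in controls and 0, 4, 0 and 2 in KA. In the authors' deposited table their adjusted p-values are 0.0402 and 0.0432, and Ctsf has 0.0427, the 3 highest among the members.

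Of the type II transmembrane serine proteases, Tmprss4 was by far the most abundant, and Tmprss11f fell while the 4 other listed Tmprss11 genes were higher in KA. The Tmprss11 genes encode proteases of the airway trypsin-like group and lie together on the minus strand of chromosome 5. Tmprss11f (ENSMUSG00000048764, 86521898 to 86632424) stood at 361, 305 and 349.7 normalised reads in controls and at 25.7, 47.3, 53.3 and 51.9 in KA (log2 fold change -2.93, SE 0.25; edgeR adjusted p = 1.11e-05). Its neighbour Tmprss11g went the other way, from 5.68, 13.4 and 6.42 to 86.1, 58.6, 17.8 and 63.3 (log2 fold change 2.74, SE 0.56). Each KA library was past every control in both genes.

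Tmprss11e had 1, 4 and 2 counts in controls and 27, 25, 32 and 27 in KA, with a log2 fold change of 3.68 (SE 0.50; edgeR adjusted p = 0.000131). Tmprss11b and Tmprss11d had 0 counts in every control. Tmprss11b had 20, 5, 4 and 7 counts in KA, at least 3.32-fold higher against the floor, and Tmprss11d had 4, 4, 7 and 4, at least 1.79-fold higher. Tmprss4, which can cut the epithelial sodium channel, stood at 2842, 1900.0 and 2714 normalised reads in controls and at 3238, 2884, 4564 and 3937 in KA. Its log2 fold change of 0.56 (SE 0.19; edgeR adjusted p = 0.0153) no longer passed with TMM scaling (0.0601) or without control 2 (0.0678), within a range of 0.000598 to 0.0864 over the alternatives. Per length, Tmprss4 had 960.0 ± 197 reads per kb in controls (SD, n = 3) and 1412 ± 289 in KA (SD, n = 4).

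**Figure D4:**
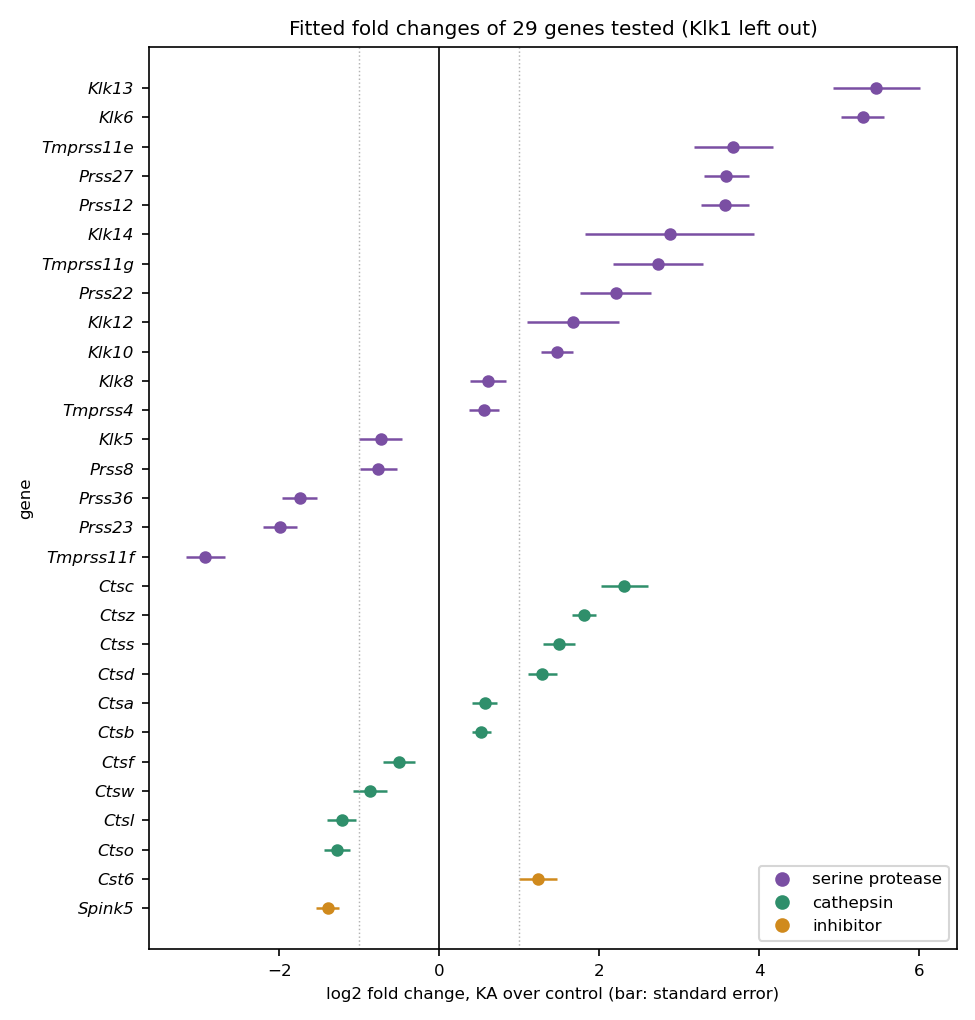
Log2 fold change of KA over control with its standard error for 29 tested genes, by class, with dotted lines at a 2-fold change. Klk1 is left out because it was at 0 in every control. Serine proteases run from -2.93 (Tmprss11f) to 5.47 (Klk13), cathepsins from -1.28 (Ctso) to 2.32 (Ctsc), and the inhibitors Cst6 and Spink5 lie on opposite sides of 0.

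Cathepsins moved over a narrower range than the serine proteases: 6 of the 10 listed rose and 4 fell, with a median log2 fold change of 0.55. This split is near that of all genes tested, of which 52.7% were higher and 47.3% lower; their median was 0.36. The aspartic protease cathepsin D and the leukocyte-associated cathepsins C, S and Z rose by 1.29 to 2.32, and cathepsins L, O, W and F fell. Ctsd (ENSMUSG00000007891, chromosome 7, 142375911 to 142388038) stood at 5030.0, 7604 and 6664 in controls and at 16877, 16507, 17644 and 11935 in KA (log2 fold change 1.29, SE 0.19; edgeR adjusted p = 0.000187). By the deposited gene length it was the most abundant protease of the 32. It had 2736 ± 554 reads per kb in controls (SD, n = 3) and 6695 ± 1098 in KA (SD, n = 4). This ranking depends on the length used. The median coding transcript was 2024.5 bases for Ctsd (deposited length 2351) and 777.5 for Klk5 (1336). Ctsb, a lysosomal cysteine protease, stood at 7469.8, 7391 and 6436 in controls and at 10615, 9972, 9599 and 10711 in KA, an even rise of 0.53 (SE 0.12; edgeR adjusted p = 0.00236). Ctsa, a lysosomal carboxypeptidase, stood at 2426 to 2879 in controls and at 3449.9 to 4967 in KA.

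Ctsc (ENSMUSG00000030560, chromosome 7, 88278085 to 88310888), the dipeptidyl peptidase that activates the granule serine proteases of leukocytes, went from 719.5, 670.1 and 483 to 4863, 2768, 1967 and 2817 (log2 fold change 2.32, SE 0.30; edgeR adjusted p = 0.000148). Ctss, which processes the invariant chain in antigen-presenting cells, went from 347, 268 and 389 to 1236, 923, 909.7 and 728 (log2 fold change 1.50, SE 0.20). Ctsz went from 219, 234 and 269 to 921, 967, 729 and 761 (log2 fold change 1.81, SE 0.16; edgeR adjusted p = 1.2e-05). None of the 3 overlapped between groups, and KA 1 was highest for Ctsc and Ctss.

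Ctsl (ENSMUSG00000021477, chromosome 13, 64359337 to 64370890), a cysteine protease whose loss disturbs hair cycling and epidermal renewal in mice, stood at 2343, 2570.1 and 3271 in controls and at 1209, 1053, 1513 and 912 in KA. Its log2 fold change was -1.22 (SE 0.18; edgeR adjusted p = 0.00021). Ctso went from 314, 327 and 362 to 129, 127, 139 and 155 (log2 fold change -1.28, SE 0.16; edgeR adjusted p = 9.58e-05). The KA libraries were tight in Ctso, all within 127 to 155. Ctsw, the cathepsin of cytotoxic lymphocytes, went from 326, 291 and 395 to 147, 149, 206 and 239 (log2 fold change -0.87, SE 0.21; edgeR adjusted p = 0.00351). Ctsf stood at 1223 to 1843 in controls and at 808 to 1440.3 in KA, which overlap. Its fall of 0.51 on the log2 scale (edgeR adjusted p = 0.0293) was lost without control 2 (0.0607), control 3 (0.144), KA 1 (0.0658), KA 2 (0.0501) or KA 4 (0.0706), within a range of 0.0051 to 0.144 over the alternatives.

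Markers of other cells moved beside the cathepsins. The background for the counts by direction below is 52.7% of all genes tested higher and 47.3% lower. Of 10 Langerhans and dendritic cell markers 9 were listed and all 9 rose, and their summed normalised reads were 25703 to 35086 in controls and 59313 to 93072 in KA. Of 10 macrophage and monocyte markers 9 were listed, 5 rose, 3 fell and 1 was too low to test, with sums of 935 to 1226 and 1822 to 2238. Of 10 T cell markers 5 were listed, 2 rose and 3 fell, with sums of 1228 to 1591 and 763 to 859.6. Trdc, of gamma-delta T cells, went from 444 ± 58.5 (SD, n = 3) to 138 ± 15.8 (SD, n = 4). Their part in the changes of Ctss, Ctsc, Ctsz and Ctsw was not tested. In bulk RNA a change in the number of cells of a type and a change in RNA per cell cannot be told apart. The neutrophil list had 2 of 10 genes in the table (1 higher, 1 lower), mast cells 0 of 9, endothelium 1 of 6 (higher), melanocytes 1 of 5 (lower) and sebocytes 8 of 9 (all higher, sums of 24406 to 36803 and 48098 to 66532). A marker that did not pass the authors' limit is not listed, so few listed markers cannot show that a cell type was absent.

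The 2 listed inhibitors moved in opposite directions. Spink5, whose loss in people causes the peeling disorder Netherton syndrome (ENSMUSG00000055561, chromosome 18, 43963235 to 44022501), stood at 10356, 9689.6 and 10846 in controls and at 3445, 3428, 4817 and 3967 in KA (log2 fold change -1.40, SE 0.14; edgeR adjusted p = 2.93e-05). Cst6 (ENSMUSG00000024846, chromosome 19, 5344705 to 5349574), the secreted cystatin that inhibits cathepsin L and legumain, stood at 13792, 22547 and 17156 in controls and at 39670.0, 52594, 47313 and 27851 in KA (log2 fold change 1.23, SE 0.24; edgeR adjusted p = 0.000973). Neither gene overlapped between the groups, and KA 4 was the KA library nearest to the controls for Cst6. Cst6 had the most reads per kb of all 35 genes, 4513 ± 1118 in controls (SD, n = 3) and 10594 ± 2718 in KA (SD, n = 4). Spink5 had 2152 ± 121 in controls by the deposited gene length, level with Klk5 at 2063 ± 185. In KA it had 818 ± 136, where Klk5 had 1240.3 ± 539.

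Protease reads were then set against inhibitor reads per library, as the sum of reads per kb over the listed members of each kind. These are ratios of RNA over listed genes only, they are independent of the size factors, and they carry no test because the members were chosen with results known. All 32 proteases over Spink5 and Cst6 gave 1.97, 1.56 and 1.87 in controls and 1.95, 1.37, 1.71 and 2.00 in KA, which overlap. The difference of the mean log2 ratio was -0.05, with an SD within groups of 0.22. Both sides were higher in KA: proteases had 11870.3 ± 625 reads per kb in controls (SD, n = 3) and 19532 ± 2803 in KA (SD, n = 4), and inhibitors had 6665 ± 1039 and 11412 ± 2722. Cst6 made up 85.2% of the inhibitor side, summed over the 7 libraries. The aspartic protease gene Ctsd made up 30.8% of the protease side, so this ratio mixes proteases and inhibitors of different kinds. The sign of this near-zero difference turned when genes were weighted alike (1.44), without the most abundant protease and inhibitor (1.89), and without control 1 (0.024) or KA 2 (0.069). Taking out Cst6 left Spink5 as the only inhibitor, so the 1.89 is close in kind to the serine protease ratio below. Weighting alike used log2 values with a small offset, which sets the rise of genes at 0 in every control.

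Split by chemistry, the ratio moved in opposite directions. The 22 serine proteases over Spink5 gave 2.51, 2.55 and 2.41 in controls and 11.4, 9.92, 9.27 and 6.95 in KA, a difference of 1.89 on the log2 scale (SD within groups 0.24) or 3.71-fold. The controls were within a narrow band and every KA library was far above it. Both sides of the ratio moved: serine protease reads per kb went from 5354 ± 171 to 7605 ± 1527, and Spink5 fell. Without Klk5, the most abundant serine protease, the difference was 2.35. Tmprss4 made up 18.3% of the serine protease side, and whether the Spink5 product restrains each of the 22 was not examined. The 8 cysteine cathepsins over Cst6 gave 0.880, 0.554 and 0.794 in controls and 0.486, 0.327, 0.356 and 0.590 in KA. This is a difference of -0.77 on the log2 scale (SD within groups 0.38), and KA 4 overlapped the controls. Cysteine cathepsins had 3227 ± 197 reads per kb in controls (SD, n = 3) and 4412 ± 322 in KA (SD, n = 4).

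**Figure D5:**
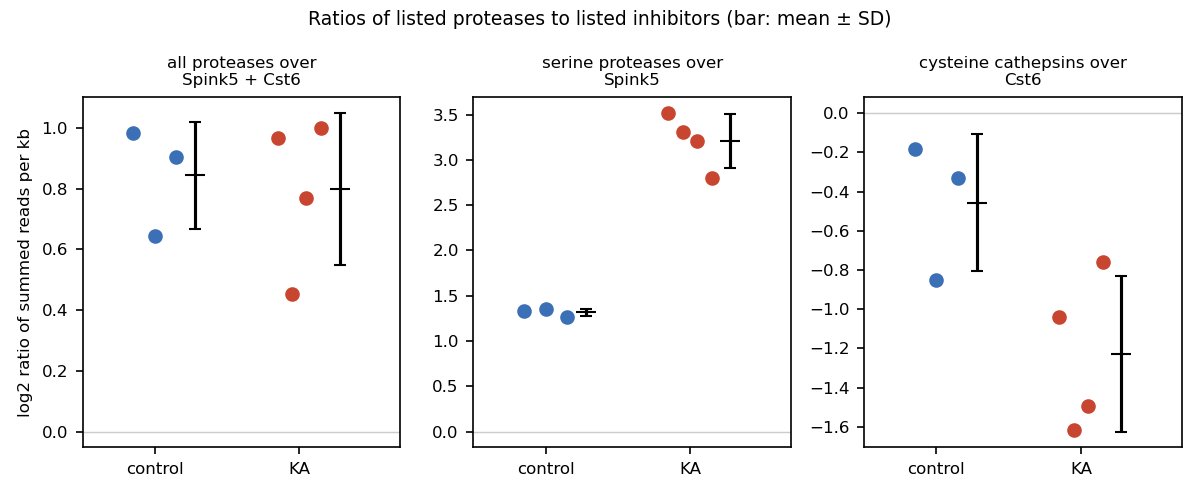
Log2 ratio of summed reads per kb in each library (points), with mean and SD beside them, for all listed proteases over both inhibitors (left), serine proteases over Spink5 (middle) and cysteine cathepsins over Cst6 (right). Only the middle ratio separates the groups without overlap, 2.41 to 2.55 in controls and 6.95 to 11.4 in KA on the linear scale.

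The single pairs printed here followed the same split, but not every member did. On the log2 scale Tmprss11f (-2.93), Prss23 (-1.99) and Prss36 (-1.75) fell more than Spink5 (-1.40). Ctsc (2.32), Ctsz (1.81) and Ctss (1.50) rose more than Cst6 (1.23). Reads per kb of Klk5 relative to Spink5 were 0.988, 1.09 and 0.817 in controls and 1.55, 1.51, 2.00 and 0.908 in KA, so KA 4 lay inside the control range although both genes fell. Klk8 relative to Spink5 went from 0.404 ± 0.0153 (SD, n = 3) to 1.62 ± 0.415 (SD, n = 4), and Klk10 relative to Spink5 from 0.214 ± 0.0244 to 1.60 ± 0.519. Klk6 relative to Spink5 went from 0.0115 ± 0.00355 to 1.21 ± 0.364. Ctsl relative to Cst6 went from 0.0963 ± 0.0242 to 0.0175 ± 0.00361, a 5.47-fold lower value from a fall of the protease and a rise of the inhibitor.

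Partner genes outside these families were taken from a list of 42. Of 13 substrates and targets, 10 were listed, of which 3 rose and 7 fell (median log2 fold change -0.84). Corneodesmosin (Cdsn), a direct target of Klk5 and Klk7, had 6810.1 ± 1595 normalised reads in controls (SD, n = 3) and 2396 ± 502 in KA (SD, n = 4). Desmoglein Dsg1a went from 31350.0 ± 1449 to 13324 ± 3856, while its paralog Dsg1b rose from 1005 ± 342 to 1607 ± 217. F2rl1, the protease-activated receptor that kallikreins can switch on, went from 2469 ± 173 to 1316 ± 363. The sodium channel subunits Scnn1a and Scnn1g fell by 0.44 and 0.77 on the log2 scale, and both overlapped between the groups. Filaggrin (Flg) rose from 426 ± 63.3 to 3387 ± 1906 and Flg2 fell from 8118 ± 1336 to 397 ± 345. Reads of the near-identical Dsg1 copies and of repeat-rich filaggrins may be divided unevenly.

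Of 10 other cornification proteases 5 were listed, 3 higher (Casp14, Blmh and Furin) and 2 lower (Capn1 and Mmp9). Over all genes tested 52.7% were higher and 47.3% lower. Blmh, which breaks filaggrin down to amino acids, went from 4332 ± 523 (SD, n = 3) to 12874 ± 2795 (SD, n = 4), and Furin, which activates many proproteins, from 1923 ± 178 to 2906 ± 301. Of 19 other protease inhibitors 13 were listed, 10 higher and 3 lower, against the same background. Cstb, the intracellular cystatin B, went from 2129 ± 492 to 7297 ± 1428. Summed over this list, inhibitors had 7350 to 9167 normalised reads in controls and 93651 to 160759 in KA, with the largest mean in KA for Stfa3, a stefin A gene (53.1 ± 26.4 to 57758 ± 13252). Serpina12, by contrast, fell from 2139.7 ± 113 to 112 ± 100. These inhibitors are outside the ratios above.

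The KA mice did not rank alike across members. Of 26 members with over 20 counts in every KA library, KA 3 was the highest for 13, among them Klk5, Klk8, Prss8, Spink5, Ctsl and Ctsd. KA 1 was the highest for 7, namely Klk6, Klk10, Klk13, Prss12, Prss27, Ctsc and Ctss. KA 4 was the lowest for 10, among them Klk5, Klk6, Klk8, Klk10, Cst6 and Ctsd. KA 3 was the lowest for Klk13, Prss12, Prss27 and Ctsc, among 7 in all.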

How the data were processed

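The submitters' processing notes name fastp, STAR 2.6.1d, featureCounts 1.5.0-p3, DESeq2 1.40.2 and the build mm10, without their order; the strand setting is not given in the sources used here. Per the file headers, the authors deposited, for each gene, a read count per library, a normalised signal (the count over a size factor), a log2 fold change, a test score (not used here) and p-values. All 7091 genes listed passed the authors' limit of 0.05 on the adjusted p-value. Their counts were tested with edgeR 4.0.16 (R 4.3.3), quasi-likelihood, Benjamini-Hochberg over the 6749 genes that passed filterByExpr (342 did not). The authors' size factors were used because factors from a table of selected genes need not be those of the libraries: TMM shifts log2 fold changes by a median of 0.134. Reads per kb use the table's gene length. Members and lists were chosen with earlier results of these data known. Genes given with every library's value were those with textbook roles in desquamation, lysosomes or leukocytes and the 3 largest rises and falls in each class. Klk1, Klk12, Prss12, Prss22, Prss28, Prss41, Prss23os, Tmprss4 and Tmprss11b, d, e and g are outside that rule and were chosen for print after their values were seen. Names, overlaps and lengths came from GENCODE M21. Alternatives used TMM and RLE factors, other filters, DESeq2 1.42.0, limma-voom (limma 3.58.1), sex, a replicate block and leaving out each library. Those on runs of animal numbers, transcript length, the wider adjustment and the top protease were chosen after seeing the data. Scripts were tested on simulated data.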

Additional observations from a re-analysis of the deposited data

Results flagged for a closer look

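Among the 4 KA libraries, 1 library stood far from the others in 2 of the 35 genes, measured as its distance to the next library divided by the whole spread of the group, with a critical value of 0.829. For Ctsa this was 0.928, with KA 3 highest. For Tmprss11d it was 0.836, again with KA 3 highest, at 7 counts against 4 in each of the others. Chance gives about 1.75 such genes in 35.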

How the results depend on the processing

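No tested member changed direction under any alternative run. The ratio of all proteases to both inhibitors differed by -0.05 (log2); it was 1.44 as a mean of log2 per gene, 1.89 without the most abundant protease and inhibitor, -0.62 with the median coding transcript length, and -0.14 to 0.069 leaving out 1 library (0.024 without control 1 and 0.069 without KA 2). The serine protease to Spink5 ratio (1.89) was 3.19 per gene, 2.35 without the most abundant protease and 1.50 by transcript length, and 1.79 to 2.03 leaving out 1 library. The cathepsin to Cst6 ratio (-0.77) was -1.30 by transcript length and -0.97 to -0.63 leaving out 1 library. With 1 inhibitor in each of these, removing the most abundant inhibitor was not run. In the ratio of all proteases that removal left Spink5 alone. The values per gene use a small offset, which sets the rise of genes at 0 in every control. TMM and RLE scaling ended the calls of Klk8 and Tmprss4, limma-voom those of Klk14 and Klk12, and adjustment over 19407 genes those of Ctsf, Klk14, Klk8 and Klk5; the cause was not tested. With TMM, 2976 genes of all were higher and 3212 lower, against 3554 and 3192. Same-numbered libraries did not deviate together (r of -0.184, 0.114 and -0.105), and the replicate block left 29 of 30 members called, losing Klk14 (adjusted p = 0.0672 in edgeR). Animal numbers fall into 2 runs; with the run as a term 30 members were called, and within the lower run Tmprss4 was lost (adjusted p = 0.0713 in edgeR). The higher run holds 1 control.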
